A study of Mus musculus with 6 samples.

Results

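The Ifit genes encode interferon-induced proteins with tetratricopeptide repeats, and 4 of them (Ifit1, Ifit2, Ifit3 and Ifit3b) were followed among the 55631 genes of a bulk RNA-seq table from mouse palatal shelves. The members were chosen by name, as the listed symbols of a cluster on chromosome 19, after the difference between the genotypes in these libraries was known. The values of that difference are therefore given as a description, with no test of the members.

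Palatal shelves are the paired outgrowths that meet and fuse to form the roof of the mouth, and they were collected from embryos at E14.5. The control group, titled WT, held 3 libraries of the genotype p130Casfl/fl, with no Cre named. The other group, titled KO, held 3 libraries of the genotype p130Casfl/fl; CAG-Cre. Both groups carry the floxed allele of p130Cas, an adaptor protein of focal adhesions that is encoded by Bcar1. CAG is a broadly active promoter, so Cre is not limited to the palate, and Cre itself and the loss of p130Cas cannot be told apart in this design. Whether libraries came from single or pooled embryos, or from separate litters, is not given in the sources used here, so the spread between libraries may be partly technical. Each library is a whole shelf with many cell types, in which fewer cells of a type and less RNA per cell cannot be told apart.

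Values are FPKM, fragments scaled to transcript length and to the size of the library, which is a level per transcript length, and how many reads stand behind each one is unknown. The smallest value above 0 lay between 0.10 and 0.118 FPKM in each library, and no value lay between 0 and it. How values below it were treated before deposit is not known, so for Ifit3b, the interferons and others a 0 means only that the gene is listed at 0. Between 21500 and 21869 genes were above 0 per library. All 7 palatal mesenchyme markers, all 5 epithelial markers and all 5 endothelial markers were above 0 in every library. The targeted gene Bcar1 was at 1.80, 1.97 and 2.09 FPKM in the control libraries and at 1.69, 1.69 and 1.31 FPKM in the KO libraries, without overlap. It did not pass the test (log2 difference −0.21 ± 0.11 (SE), adjusted p = 1.00, limma with Benjamini-Hochberg adjustment), and the deleted exons were not examined separately. KO replicate 2 stood apart in its sex-linked RNA: Xist was at 61.0 FPKM there and at 0 in the other 5 libraries, while Ddx3y was at 0 there and between 15.2 and 18.8 FPKM elsewhere.

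Ifit proteins are cytoplasmic effectors of the interferon response. Ifit1 binds RNA whose cap lacks ribose methylation at the first base and blocks its translation, and several Ifit proteins bind the translation initiation factor eIF3. Transcription of the family is induced by interferons through ISGF3, a complex of STAT proteins with Irf9, at interferon-stimulated response elements, and by interferon regulatory factors at the same elements. Ifit2 and Ifit3 bind other family members, and Ifit3b is a close relative of Ifit3.

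The cluster spans 99.3 kb of chromosome 19 in GRCm38, the build called mm10 in the submitters' notes. From the lower coordinate upwards it holds Ifit2 (ENSMUSG00000045932, chr19:34550694-34576419, plus strand), Ifit3 (ENSMUSG00000074896, chr19:34583531-34588731, plus strand), Ifit1bl1 (ENSMUSG00000079339, chr19:34592891-34601956, minus strand), Ifit3b (ENSMUSG00000062488, chr19:34607970-34613401, plus strand), Ifit1bl2 (chr19:34617049-34640743, minus strand) and Ifit1 (ENSMUSG00000034459, chr19:34640871-34650009, plus strand). Ifit1bl1 and Ifit1bl2 are Ifit1-like genes that are not among the 4 members. Values of Ifit1bl2 were not analysed here.

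Promoter sequence was not used to choose the genes, and it separated Ifit2 from the other 3 members. RefSeq promoter windows of 300 bases (GRCm38.p6, from 250 bases before to 50 after the start site) were searched on both strands. The core of the interferon-stimulated response element was read as GAAA, any 2 bases and GAAA, and its longer form, a subset of the core matches, as the core followed by CT. The gamma-activated site, bound by STAT dimers, was read as TTCNNNGAA. The core was present 2 times in each of the windows of Ifit1, Ifit3 and Ifit3b and was absent from both windows of Ifit2, whose annotated starts lie 394 bases apart. Among all 32851 windows, 3.44% held the core, 0.271% the longer form and 8.30% the gamma-activated site. The stretches that hold the core matches are printed below, 5′ to 3′ on the gene's own strand, with each match (here in reverse complement) in capitals.
Ifit1, chr19:34640760-34640838 (plus strand): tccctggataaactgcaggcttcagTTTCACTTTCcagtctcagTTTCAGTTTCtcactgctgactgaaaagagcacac
Ifit3, chr19:34583348-34583441 (plus strand): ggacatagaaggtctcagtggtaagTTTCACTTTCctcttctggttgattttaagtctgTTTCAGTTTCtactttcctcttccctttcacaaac
Ifit3b, chr19:34607744-34607837 (plus strand): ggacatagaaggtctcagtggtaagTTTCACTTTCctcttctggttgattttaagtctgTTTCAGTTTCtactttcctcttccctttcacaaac
Ifit1bl1, chr19:34602038-34602097 (minus strand): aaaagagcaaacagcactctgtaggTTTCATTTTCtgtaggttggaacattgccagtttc

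These sequences are shown because they mark which members have matches to the core and which share a promoter stretch. In Ifit1 the matches lay 104 to 95 and 85 to 76 bases before the start at 34640889, and both were of the longer form. In Ifit3 they lay 156 to 147 and 122 to 113 bases before the start at 34583529. In Ifit3b they lay 188 to 179 and 154 to 145 bases before the start at 34607957. Ifit3 and Ifit3b each had 1 match of the longer form. The printed stretches of Ifit3 and Ifit3b were the same in every base, and the longest run of identical bases in the 2 windows was 169.

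The Ifit1 stretch also lies in a promoter window of Ifit1bl2, read on the opposite strand. The RefSeq starts of these windows lie 146 bases apart and point away from each other. The other window of Ifit1bl2, with its start at 34629811, held no match of any of these motifs. Ifit1bl1 had 1 core match in each of its 2 windows and none of the longer form. In Ifit2, 1 window held a gamma-activated site, 241 bases before the start at 34550694. A match is a description of letters, and its absence says only that these letters are not in these windows. Of the tested genes with a RefSeq window, 3.37% had the core in at least 1 window, against 16 of the 36 (44.4%) such genes, Ifit1 included, that passed the test as higher in KO. For the longer form the shares were 0.261% and 8 of 36 (22.2%), and for the gamma-activated site 7.90% and 19.4%.

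All 4 Ifit genes were higher in every KO library than in every control library, and for the 3 with values above 0 in control the ratio of mean FPKM was 1.30 for Ifit2, 15.7 for Ifit3 and 27.4 for Ifit1. Ifit3b, listed at 0 in control, has no ratio and is not ranked. Ifit2 was the one member with a clear level in control shelves. Ifit1 and Ifit3 were close to the smallest listed value there, and Ifit3b was listed at 0. Among all tested genes, 3.27% had every KO value above every control value, and among all genes above 0 in at least 1 library the share was 3.56%. The choice of members used this contrast, so nothing is read from the comparison of these shares.

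Ifit1, the sensor of RNA caps without ribose methylation, was at 0.187, 0.141 and 0.143 FPKM in control replicates 1, 2 and 3. In KO replicates 1, 2 and 3 it was at 2.08, 4.94 and 5.88 FPKM. The KO values were all far above the controls, and KO replicate 1 was the lowest of the 3. The group means were 0.157 ± 0.0259 FPKM (SD, n = 3) in control and 4.30 ± 1.98 FPKM (SD, n = 3) in KO. The log2(FPKM + 1) difference was 2.11 ± 0.27 (SE). Adding 1 to each value makes such differences smaller than the fold for genes at low levels.

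Ifit3, a partner of other Ifit proteins, was listed at 0 in control replicate 1 and was at 0.356 and 0.202 FPKM in control replicates 2 and 3. In KO replicates 1, 2 and 3 it was at 1.30, 3.49 and 3.97 FPKM, again with KO replicate 1 the lowest and no overlap. Its mean went from 0.186 ± 0.179 FPKM (SD, n = 3) to 2.92 ± 1.42 FPKM (SD, n = 3), a log2(FPKM + 1) difference of 1.66 ± 0.28 (SE). The ratio of means was 15.7, or 13.0 with the value listed at 0 set to the smallest listed value of its library.

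Ifit3b was listed at 0 in all 3 control libraries. It was at 0.294, 1.03 and 1.12 FPKM in KO replicates 1, 2 and 3, a mean of 0.813 ± 0.452 FPKM (SD, n = 3), and KO replicate 1 was again the lowest. No fold is given against a group listed at 0, and the log2(FPKM + 1) difference was 0.82 ± 0.17 (SE, from a fit without the filter on low values).

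Ifit2, the member without a core match in its windows, was at 3.79, 3.42 and 3.06 FPKM in control replicates 1, 2 and 3. In KO replicates 1, 2 and 3 it was at 3.96, 4.48 and 4.91 FPKM. The highest control and the lowest KO value were close, and the groups did not overlap. The mean went from 3.42 ± 0.364 FPKM (SD, n = 3) to 4.45 ± 0.476 FPKM (SD, n = 3), a log2(FPKM + 1) difference of 0.30 ± 0.11 (SE).

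Of the 4 members, 3 had the mean of at least 1 FPKM needed to enter the fit across genes, and Ifit1 and Ifit3 did so only through their KO libraries. Of these 3, 1 (Ifit1) was among the genes called higher in KO, defined as a Benjamini-Hochberg adjusted p under 0.05 in limma. Over all 14714 genes tested, 48 (0.326%) were called higher and 1 (0.0068%) lower, while 307 higher and 283 lower genes had an unadjusted p under 0.05. The contrast chose the members, so nothing is read from that share. Calls of members, here and under the alternatives, describe the fit and are no test of them. The call of Ifit1 was lost without control replicate 1, 2 or 3 and without KO replicate 2 or 3, where no member was called. Without KO replicate 1, the calls were Ifit1 and Ifit3.

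**Figure D1:**
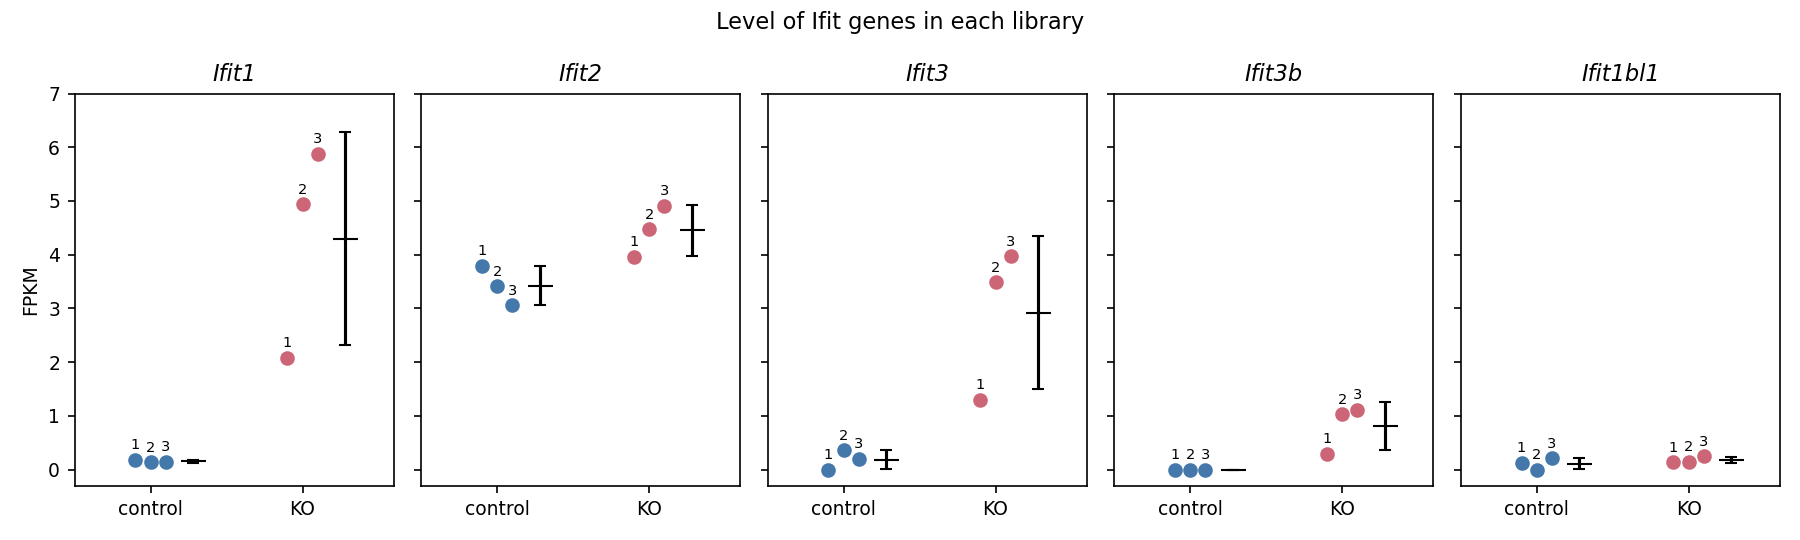
FPKM of Ifit1, Ifit2, Ifit3, Ifit3b and Ifit1bl1 in each control and KO library (points), with the group mean and SD. The KO points of the 4 members lie above their control points, with KO replicate 1 lowest in each, and Ifit1bl1 overlaps between the groups.

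Ifit1bl1, which lies between Ifit3 and Ifit3b on the other strand, did not separate the groups. It was at 0.126, 0 and 0.210 FPKM in control replicates 1, 2 and 3 and at 0.137, 0.143 and 0.245 FPKM in KO replicates 1, 2 and 3. These values are near the smallest listed ones, the log2(FPKM + 1) difference was 0.08 ± 0.09 (SE), and the gene was below the level needed for a test.

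The order of the members was not the same in the 2 groups. In control libraries, Ifit2 was above every other member in each library, Ifit1 and Ifit3 overlapped, and Ifit3b was listed at 0. In KO libraries, the ranges of Ifit1 and Ifit2 overlapped (2.08 to 5.88 against 3.96 to 4.91 FPKM). Ifit1 was below Ifit2 in KO replicate 1 and above it in KO replicates 2 and 3. Within each KO library, Ifit1 was above Ifit3. Ifit3b was the lowest member in each KO library. FPKM is per transcript length, which puts these genes on a common scale. Ranks that involve Ifit3 or Ifit3b also depend on how reads shared by this pair were counted, which is not known.

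The summed FPKM of the 4 members was 3.98, 3.91 and 3.41 in control replicates 1, 2 and 3 and 7.64, 13.9 and 15.9 in KO replicates 1, 2 and 3. Ifit2 made up 90.8% ± 4.09 (SD, n = 3) of this sum in control and 38.3% ± 11.8 (SD, n = 3) in KO. Ifit1 made up 4.17% ± 0.545 (SD, n = 3) in control and 33.2% ± 5.24 (SD, n = 3) in KO. The share of Ifit3 was 5.01% ± 4.62 in control and 22.4% ± 4.62 in KO, and that of Ifit3b 0% and 6.09% ± 1.95 (SD, n = 3 each). The pool of Ifit RNA was thus mostly Ifit2 in control shelves and was divided mainly among Ifit1, Ifit2 and Ifit3 in KO shelves. The sum in KO replicate 1 was 51.9% Ifit2, against 32.1% in KO replicate 2 and 30.9% in KO replicate 3. The ratio of Ifit3 to Ifit1 in KO varied little over the libraries, at 0.624, 0.707 and 0.675.

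**Figure D2:**
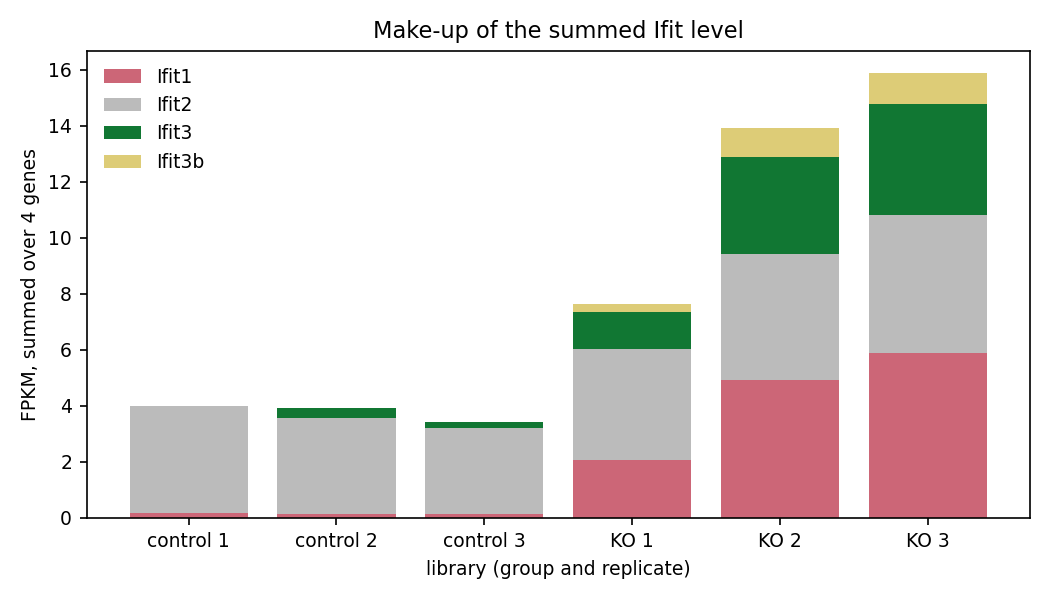
FPKM of each member in each library, stacked so that the height of a bar is the summed Ifit FPKM. The bars stand at 3.41 to 3.98 FPKM in control and at 7.64 to 15.9 FPKM in KO. Ifit2 fills 87.3 to 95.3% of the control bars and 30.9 to 51.9% of the KO bars.

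The division between Ifit3 and Ifit3b is uncertain, because their transcripts share long stretches and the way reads with several matches were counted is not given in the sources used here. Of all stretches of 50 bases in the Ifit3 transcripts, 51.2% were also present in Ifit3b, and 31.7% of stretches of 100 bases were. For Ifit3b these shares were 44.5% and 27.4%. In Ifit1, 7.14% of the 50-base stretches were shared with another gene of the cluster, nearly all with Ifit1bl2 (7.06%), and in Ifit2 none were. The sum of Ifit3 and Ifit3b, which also depends on how shared reads were counted, was 0, 0.356 and 0.202 FPKM in control replicates 1, 2 and 3 and 1.59, 4.52 and 5.09 FPKM in KO replicates 1, 2 and 3. The setting of strand in the counting is not stated either. The annotated spans of Ifit1bl1 and Ifit1bl2, on the opposite strand, do not overlap those of the members.

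No gene around the cluster passed the test. Of 31 annotated genes within 500 kb of the outermost members, 26 had values, 13 of these were at 0 in all libraries, and 6 were tested (Stambpl1, Acta2, Fas, Lipa, Pank1 and Kif20b). The 6 were not called in limma, and none had an unadjusted p under 0.05. The largest log2(FPKM + 1) differences among them were 0.23 ± 0.14 (SE) for Kif20b, a kinesin of cell division, 0.18 ± 0.10 for Lipa, a lysosomal lipase, and −0.07 ± 0.15 for Acta2, the actin of smooth muscle. Ch25h, a cholesterol hydroxylase induced by interferon, lay below the level needed for a test. It was at 0.596, 0.634 and 0.310 FPKM in control replicates 1, 2 and 3 and at 0.805, 1.01 and 0.804 FPKM in KO replicates 1, 2 and 3, without overlap, and was picked out after its values were seen.

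**Figure D3:**
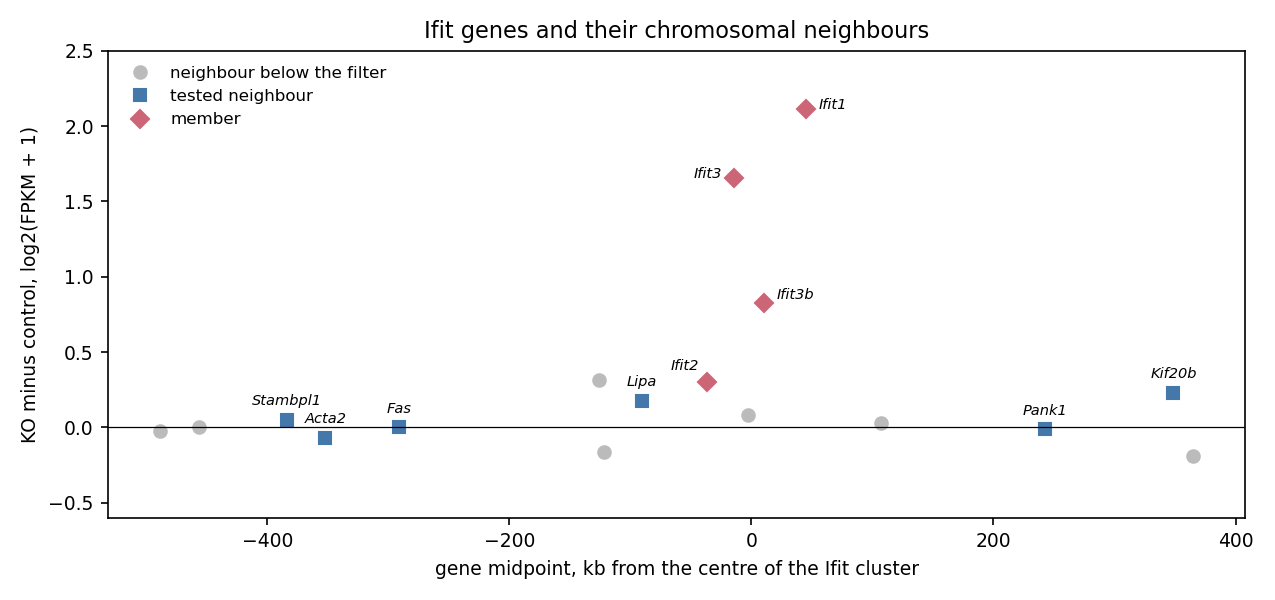
Log2(FPKM + 1) difference of KO minus control (vertical axis) against the distance of the gene midpoint from the centre of the cluster in kb (horizontal axis), for genes above 0 in at least 1 library. Ifit1, Ifit3 and Ifit3b stand between 0.82 and 2.11, while the tested neighbours lie between −0.07 and 0.23.

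Among KO libraries, Ifit1, Ifit3 and Ifit3b varied more than most tested genes. The highest KO value was 2.82 times the lowest for Ifit1, 3.06 times for Ifit3, 3.80 times for Ifit3b and 1.24 times for Ifit2. In all tested genes the median of this ratio was 1.20, and 1.49% had a ratio at least as large as that of Ifit1. The tested genes were not matched to the members in level, and Ifit3b was not among them. In the 47 other genes called higher in KO the median was 1.29, and none reached the ratio of Ifit1. A call in limma sets the difference against the spread within groups, so genes that vary widely among KO libraries are called less often. Nothing is read from the smaller ratios of these called genes. All 4 members were lowest in KO replicate 1, as were 36 of these 47 genes (76.6%) and 31.9% of all tested genes. All 4 members were also highest in KO replicate 3, with KO replicate 2 between, which held for 15 of the 47 (31.9%) and 13.2% of all tested genes. The 4 members lie in 1 cluster and share sequence, so they are not independent observations of these libraries.

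Markers of macrophages and other leukocytes were also at higher levels in KO libraries. The summed FPKM of 19 macrophage and leukocyte markers was 96.6, 106 and 121 in control replicates 1, 2 and 3 and 153, 186 and 135 in KO replicates 1, 2 and 3. For 15 of the 19 markers every KO value was above every control value, which held for 3.27% of tested genes and 3.56% of all genes above 0 in a library. Of the 15 markers tested, none was called in limma, 12 were higher with an unadjusted p under 0.05 (307 of 14714 over all tested genes), and all 15 had a log2(FPKM + 1) difference above 0, with a median of 0.45 against −0.02 over all tested genes. The 5 endothelial markers moved the other way, with summed FPKM of 109 to 124 in control and 89.1 to 107 in KO. All 5 had a difference below 0 (median −0.16), none was called in limma, and 2 had an unadjusted p under 0.05, Egfl7 and Cldn5. The groups did not overlap for Egfl7 and Cldn5, and they overlapped for Pecam1, Cdh5 and Kdr. The part of any of these cells in the Ifit levels was not tested.

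The order of the KO libraries was not the same for these markers and for the Ifit genes. None of the 19 markers had the order of the Ifit members, 3 were lowest in KO replicate 1 and 13 were lowest in KO replicate 3, where each Ifit member was highest. Over all tested genes, 13.2% had that order, 31.9% were lowest in KO replicate 1 and 3927 of 14714 in KO replicate 3. Markers of the same cell types are not independent observations of these libraries. Of the 5 T and NK cell markers, Cd3d, Cd3e and Ncr1 were at 0 in all libraries. Their summed FPKM was at most 0.173 in control and 0.148 in KO. Of the 4 B cell markers, 2 were at 0 in all libraries. Cd79b, a chain of the B cell receptor complex, was between 0.554 and 0.848 FPKM, and Cd79a, the other chain, between 0.148 and 0.444 FPKM, with overlapping groups. The B cell markers summed to 0.996 to 1.17 FPKM in control and 0.852 to 1.26 FPKM in KO. Of the 3 markers of plasmacytoid dendritic cells, Ccr9 was at 0 in all libraries and Siglech at most at 0.215 FPKM, in KO replicate 2. Tcf4, which other cell types also express, was between 26.9 and 38.7 FPKM over the libraries, with overlapping groups. The summed markers of neutrophils and mast cells ranged from 11.9 to 16.2 FPKM over control libraries and from 12.1 to 16.7 FPKM over KO libraries.

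**Figure D4:**
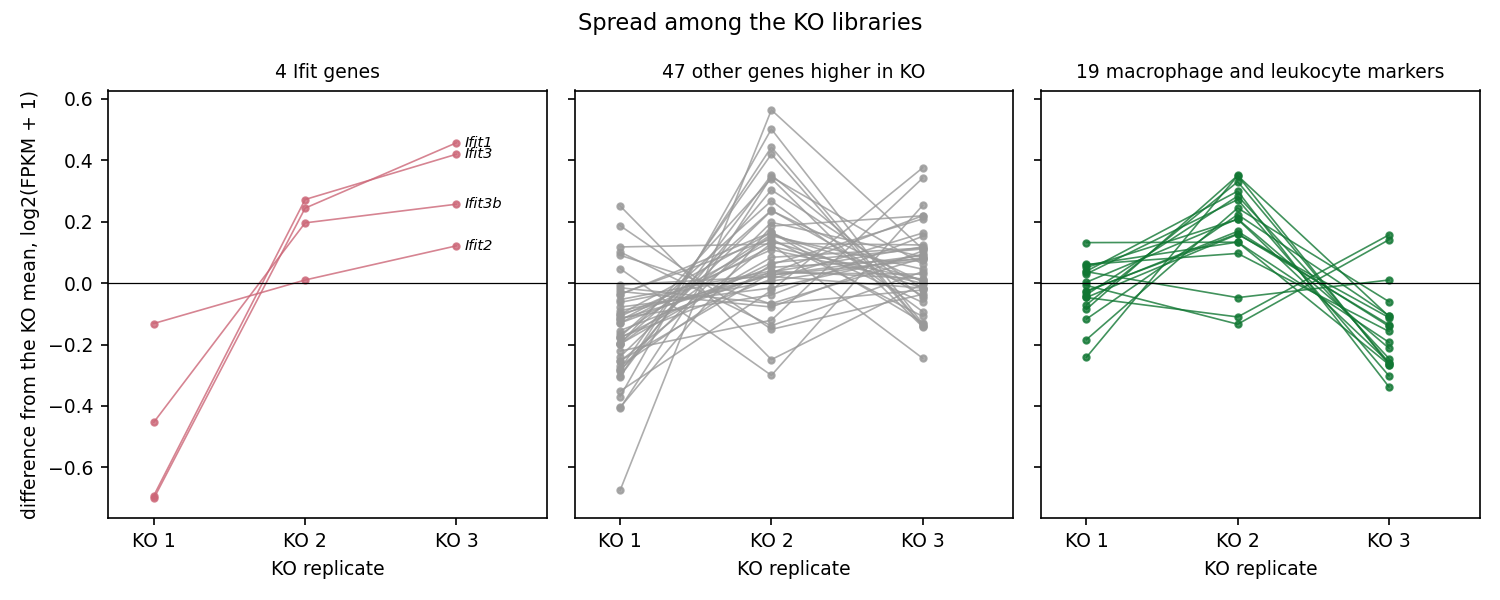
Deviation of each KO library from the KO mean of a gene, in log2(FPKM + 1), for the 4 members, the 47 other genes called higher, and the 19 macrophage and leukocyte markers; lines join the 3 values of a gene. The members have their lowest value in KO replicate 1, while the markers are most often lowest in KO replicate 3.

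Genes whose levels over the 6 libraries were most like the members' mean log2(FPKM + 1) were Iigp1, Trim34a, Irgm2, Ccl12, Prelid2, Ifi44, Igtp and Ifi27l2a, with Pearson r from 0.974 to 0.993. With 2 groups in the same 6 libraries, r mostly reflects the difference between the groups, and it is given as a description. Igtp, an interferon-inducible GTPase, rose from 1.28 ± 0.128 to 5.54 ± 1.09 FPKM (SD, n = 3 each; log2 difference 1.51 ± 0.14 (SE), adjusted p = 0.00371, limma). Ifi27l2a, an interferon-induced gene of the Ifi27 family, rose from 1.40 ± 0.0825 to 22.4 ± 9.41 FPKM (log2 difference 3.20 ± 0.27, adjusted p = 0.00253, limma). Ifi44 rose from 0.812 ± 0.177 to 4.10 ± 0.838 FPKM (log2 difference 1.48 ± 0.15, adjusted p = 0.00502, limma). Irgm2, another interferon-inducible GTPase, rose from 0.825 ± 0.0948 to 2.95 ± 0.639 FPKM (log2 difference 1.10 ± 0.14, adjusted p = 0.0183, limma). The call of Irgm2 was lost without control replicate 1, 2 or 3 or KO replicate 2 or 3, with adjusted p from 0.0599 to 0.116 in limma. Iigp1, Trim34a, the chemokine Ccl12 and Prelid2 did not pass the test. Iigp1, a GTPase of the same class and the gene most like the members, was at 0.343, 0.398 and 0.270 FPKM in control replicates 1, 2 and 3. In KO replicates 1, 2 and 3 it was at 1.20, 2.27 and 3.28 FPKM, with these libraries in the same order as for the members. Iigp1 was picked for its likeness over these libraries, so that order is no separate observation.

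The rest of the pathway was described from 8 lists with 112 distinct genes, ordered from the interferons to the inhibitors of their signal. Of the 75 that were tested, 22 were called higher and none lower (1 had an unadjusted p under 0.05 and was lower), against 0.326% and 0.0068% of all tested genes. Some called genes, Irf7, Usp18 and Ifi44 among them, averaged under 1 FPKM in control and reached the filter only through their KO libraries. The lists were assembled with results of these libraries known, so their counts are no independent evidence. The comparison is the same one that chose the members.

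The ligands were nearly all listed at 0. Of 21 genes of type I, II and III interferons, 20 were at 0 in all 6 libraries, Ifnb1 and Ifng included. Ifnz was at 0.172 and 0.137 FPKM in control replicates 1 and 2 and at 0 elsewhere, near the smallest listed values. With the depth unknown, interferon RNA at lower levels may not be detectable here.

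The receptors and their kinases were above 0 in every library, and none passed the test. Of the 9 genes, all were tested, none was called in limma and none had an unadjusted p under 0.05, with a median log2(FPKM + 1) difference of 0.02. Ifnar2, a chain of the type I receptor, had means of 10.2 ± 0.155 and 10.9 ± 0.582 FPKM in control and KO (SD, n = 3 each; log2 difference 0.08 ± 0.07 (SE), adjusted p = 1.00, limma). Il10rb, a chain of the type III receptor, was at 7.96 ± 0.534 and 8.69 ± 1.68 FPKM (0.10 ± 0.12, adjusted p = 1.00).

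Of the STAT and IRF factors that act at interferon-stimulated response elements, 9 of 10 were tested, 3 were called higher and none lower, with a median difference of 0.28. Irf7, which amplifies the type I interferon response, rose from 0.728, 0.180 and 0.519 FPKM in control replicates 1, 2 and 3 to 4.26, 7.87 and 6.28 FPKM in KO replicates 1, 2 and 3 (log2 difference 2.26 ± 0.21 (SE), adjusted p = 0.00453, limma). Irf9, the DNA-binding subunit of ISGF3, rose from 7.86 ± 0.967 to 16.1 ± 1.79 FPKM (SD, n = 3 each; 0.95 ± 0.11, adjusted p = 0.0124, limma).

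The call of Irf9 was lost without control replicate 2 (adjusted p = 0.0707), control replicate 3 (0.104) or KO replicate 3 (0.0599), in a range of 0.00936 to 0.104 over all alternatives in limma. Stat2, another subunit of ISGF3, had means of 6.21 ± 0.257 and 8.38 ± 1.40 FPKM in control and KO and did not pass (0.37 ± 0.11, adjusted p = 0.970, limma). It was picked out after its values were seen. Stat2 and Irf9 each had KO replicate 1 lowest and KO replicate 3 highest, as the Ifit members did, while Irf7 was highest in KO replicate 2. The order of the Ifit members held for 10 of the 22 called genes of the pathway lists (45.5%).

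Of 16 sensors of foreign nucleic acid and their adaptors, 11 were tested, 2 were called higher and none lower, with a median difference of 0.18. Ddx58, which encodes the RNA sensor RIG-I, rose from 3.17 ± 0.148 to 7.46 ± 0.444 FPKM (SD, n = 3 each; log2 difference 1.02 ± 0.08 (SE), adjusted p = 0.00204, limma). Trim25, the ubiquitin ligase that acts on RIG-I, rose from 4.53 ± 0.436 to 11.8 ± 0.775 FPKM (1.21 ± 0.09, adjusted p = 0.00141, limma).

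The cellular partners of Ifit function showed no called difference. None of the 6 genes for making and methylating the mRNA cap, which sets the RNA that Ifit1 binds, was called in limma or had an unadjusted p under 0.05, with a median difference of −0.05. Cmtr1, the enzyme that adds the ribose methyl group at the first base, was at 13.5, 14.2 and 13.9 FPKM in control replicates 1, 2 and 3 and at 14.3, 15.3 and 16.0 FPKM in KO replicates 1, 2 and 3 (0.12 ± 0.07 (SE), adjusted p = 1.00, limma). Its groups did not overlap, by a small margin. Rngtt, the capping enzyme, had means of 5.93 ± 0.203 and 5.65 ± 0.0379 FPKM in control and KO (−0.06 ± 0.07, adjusted p = 1.00).

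All 14 genes of eIF3 subunits were tested, none was called in limma and none had an unadjusted p under 0.05, with a median difference of −0.05. Eif3h had means of 175 ± 14.9 and 162 ± 9.05 FPKM in control and KO (SD, n = 3 each; −0.11 ± 0.08 (SE), adjusted p = 1.00). Eif3f was at 119 ± 11.4 and 109 ± 14.4 FPKM (−0.13 ± 0.11, adjusted p = 1.00). RNA of either subunit was above that of every Ifit gene per transcript length in all 6 libraries.

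Of 31 other widely used interferon-stimulated genes, 21 were tested, 17 were called higher and none lower, and all 21 were above 0 with a median log2(FPKM + 1) difference of 1.31. Bst2, which tethers budding virus particles to the cell, rose from 8.39 ± 0.511 to 52.1 ± 6.49 FPKM (SD, n = 3 each; 2.49 ± 0.10 (SE), adjusted p = 1.14e-04, limma). Isg15, a ubiquitin-like protein that is attached to other proteins, was at 1.05, 1.15 and 0.959 FPKM in control replicates 1, 2 and 3 and rose to 22.4, 36.9 and 24.7 FPKM in KO replicates 1, 2 and 3 (3.79 ± 0.17, adjusted p = 1.16e-04, limma). Ifi27 rose from 20.6 ± 1.47 to 50.9 ± 0.708 FPKM (1.26 ± 0.07, adjusted p = 3.10e-04, limma). Oasl2, a relative of the oligoadenylate synthetases, rose from 1.16 ± 0.322 to 11.0 ± 1.38 FPKM (2.48 ± 0.14, adjusted p = 3.40e-04, limma). In KO libraries, Isg15 and Bst2 were each above every Ifit member in FPKM, while in control libraries Isg15 was below Ifit2.

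Of 6 inhibitors of interferon signalling, all were tested, 1 was called higher and none lower, with a median difference of 0.01. Usp18, which removes Isg15 from proteins and blocks the type I receptor, and which is also on the list of interferon-stimulated genes, rose from 0.510, 0.458 and 0.242 FPKM in control replicates 1, 2 and 3 to 4.77, 7.69 and 7.89 FPKM in KO replicates 1, 2 and 3 (2.45 ± 0.18 (SE), adjusted p = 0.00141, limma). The KO libraries stood in the same order for Usp18 as for the Ifit members.

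**Figure D5:**
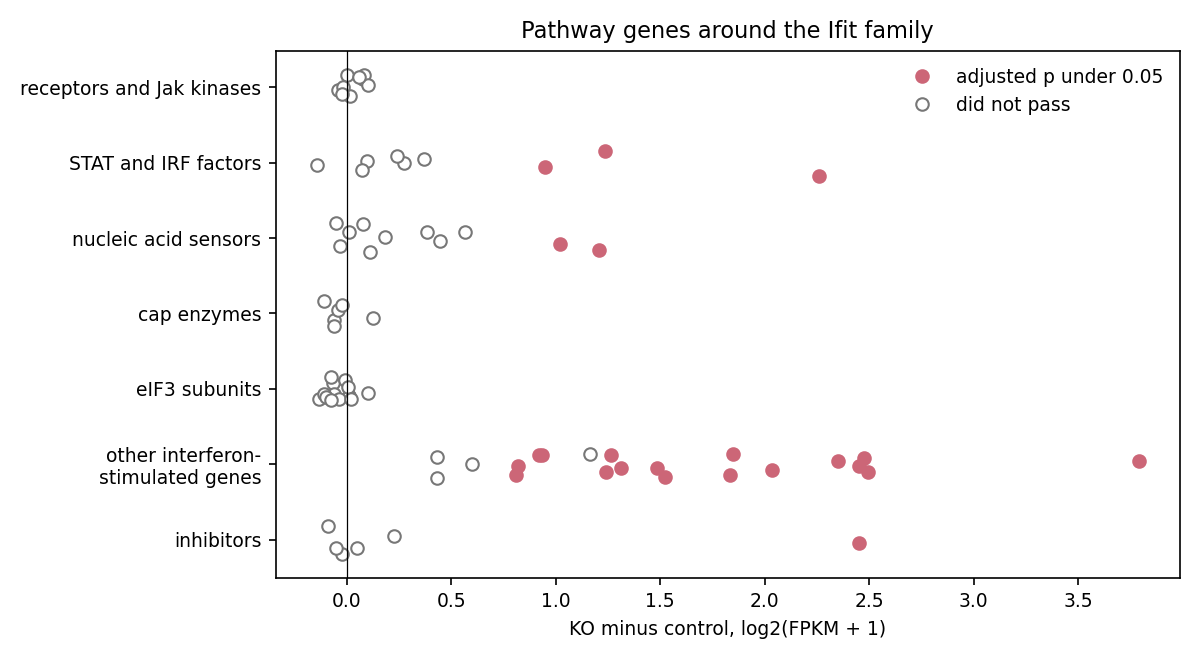
Log2(FPKM + 1) difference of KO minus control (horizontal axis) for each tested gene (points) of the pathway lists, leaving out the interferons, of which none was tested. Filled points are called genes, and the vertical spread within a list carries no value. The receptor, cap and eIF3 lists have medians of 0.02, −0.05 and −0.05, and the interferon-stimulated genes a median of 1.31.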

How the data were processed

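The deposited table holds FPKM values per Ensembl gene, which the authors computed from bulk RNA-seq of 6 libraries. RNA was extracted with a ReliaPrep column kit, per the labels' protocols. The build mm10 and DESeq2 version 1.5.2 are named in the submitters' processing notes; how reads were aligned and counted, with which annotation and on which strand, is not given in the sources used here. Library preparation was by a sequencing provider, per the labels' protocols. Depth is not given in the sources used here. Between 84 and 109 genes per library shared the smallest listed value, and how it relates to whole reads is not known, so no counting interval is given.

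Of 55631 genes, 50824 took a symbol from the reference annotation (GENCODE, GRCm38) by Ensembl ID. Differences were fitted with limma 3.58.1 in R 4.3.3 on log2(FPKM + 1), with a trended variance prior, for the 14714 genes that averaged 1 FPKM or more, without covariates and two-sided, with Benjamini-Hochberg adjustment over all of them and a threshold of 0.05. The fit was tested on simulated data. The values of some list genes are not reported here. The members and lists were chosen with earlier results of these data known. Named genes were the 4 members and the rest of their cluster; neighbours within 500 kb that passed, otherwise the 3 with the largest difference; up to 4 called genes per list by smallest p, or 2 where none was called; and the 8 tested genes most like the members, without predicted genes and pseudogenes. Alternatives changed the pseudocount, the filter, the scaling, the variance prior, the replicate block and the libraries used. Transcript stretches and promoter motifs were counted with Python 3.11.15 from the reference sequences.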

Additional observations from a re-analysis of the deposited data

How the results depend on the processing

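No result changed direction under the alternatives run. With the filter at a mean of 5 FPKM, which tests fewer genes, 24 genes were called higher and 12 of them on the pathway lists, against 48 and 22, and none was called lower; no Ifit member passed that filter. Without a filter, and with one at 0.1 FPKM, 2 genes were called lower against 1. Rescaled to TPM, 2 members were called against 1, Ifit1 and Ifit3. The log2 differences of low genes depend on the pseudocount by construction. With 0.1 they were 3.98 for Ifit1, 3.51 for Ifit3 and 3.03 for Ifit3b, with 0.01 they were 4.57, 4.84 and 6.15, and on the TPM scale 2.97, 2.45 and 1.51. Without 1 library at a time, the genes called higher ranged from 32 to 48, those called lower from 1 to 2 and the members called from 0 to 2. Over bases before the start alone, 2.98% of windows held the core motif and 7.02% the gamma-activated site.

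Deviations of same-numbered libraries from their group means had correlations of 0.019, 0.305 and −0.241. Those of differently numbered libraries ranged from −0.284 to 0.314. Deviations from a mean of 3 libraries are tied to each other, so these values cannot settle whether the numbers pair the libraries. With the replicate number as a block, 41 genes were called higher and 1 lower, and 2 members were called, Ifit1 and Ifit3.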
